A study of Homo sapiens with 8 samples.

Results

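The TOX family consists of 4 genes, TOX, TOX2, TOX3 and TOX4, and was followed here in cultured human leukaemia cells in which TOX itself was targeted. Members were taken by gene symbol from the probe-to-gene annotation of the array: each of the 4 genes had 1 probe set, among 14884 named genes and 53617 probe sets in all. Both CCRF-CEM and HPB-ALL, established lines of T cell acute lymphoblastic leukaemia (T-ALL), carried a short hairpin RNA (shRNA) against TOX, named shTOX-1 or shTOX-2, or a scramble shRNA, or were left untransduced. Virus was given by spinoculation, carriers were selected with puromycin, and at least 2 weeks passed before use. There was 1 array for each line and construct, so 4 shTOX arrays stood against 4 control arrays (2 scramble, 2 untransduced), and the scramble arrays are the only controls that share transduction and selection with the shTOX arrays. No line and construct was repeated, so a p-value reflects the spread among these 8 arrays alone. That spread mixes noise with differences between hairpins and between kinds of control, and the spread among repeat cultures of a construct is not known.

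Proteins of this family carry a single HMG box, a DNA-binding fold that bends DNA, and act in the nucleus as regulators of transcription. TOX was named for its role in thymocyte selection: it is needed for CD4 T cells to develop in the thymus, and its lasting expression marks exhausted T cells. TOX2 is expressed in natural killer and follicular helper T cells, TOX3 is best known from breast and nervous tissue, and TOX4 is a widely expressed subunit of the PTW/PP1 phosphatase complex, which acts on RNA polymerase II. In T-ALL, TOX has been described as an oncogenic factor that binds the KU heterodimer of DNA end joining.

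The array medians lay between 4.62 and 4.71 on the log2 scale, which means that a common shift of every gene would not be visible, and the number of arrays limits the precision. A gene was tested when its mean over the 8 arrays reached the 40th percentile of all genes, a log2 level of 5.18 called the filter level below. This left 8930 genes, with TOX, TOX2 and TOX4 among them and TOX3 outside. Of 10 T cell markers, 7 had a named probe set, and 6 of these stood at or above the filter level on all 8 arrays, whereas CD2 lay below it on every HPB-ALL array. The 3 CD3 chain genes had no named probe set in the annotation used here.

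TOX was lower on every shTOX array than on both control arrays of the same line, as were 4.99% of tested genes, and it was lower with shTOX-2 than with shTOX-1 in both lines. In CCRF-CEM the log2 level of TOX was 10.65 under shTOX-1 and 9.86 under shTOX-2, against 11.03 on both the scramble and the untransduced array. In HPB-ALL it was 10.16 with shTOX-1 and 8.75 with shTOX-2, against 10.59 with scramble and 10.64 in untransduced cells. The groups did not overlap within either line, but they did across lines, because CCRF-CEM with shTOX-1 stood level with the HPB-ALL controls.

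The control arrays of a line were close together: scramble differed from untransduced by -0.0006 in CCRF-CEM and by -0.05 in HPB-ALL. Relative to the mean of both controls, shTOX-1 left 77.0% of the TOX signal of CCRF-CEM and 73.0% of that of HPB-ALL. The share left by shTOX-2 was lower, 44.6% for CCRF-CEM and 27.6% for HPB-ALL. An array of a bulk culture cannot tell fewer cells with TOX from less TOX RNA per cell.

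**Figure D1:**
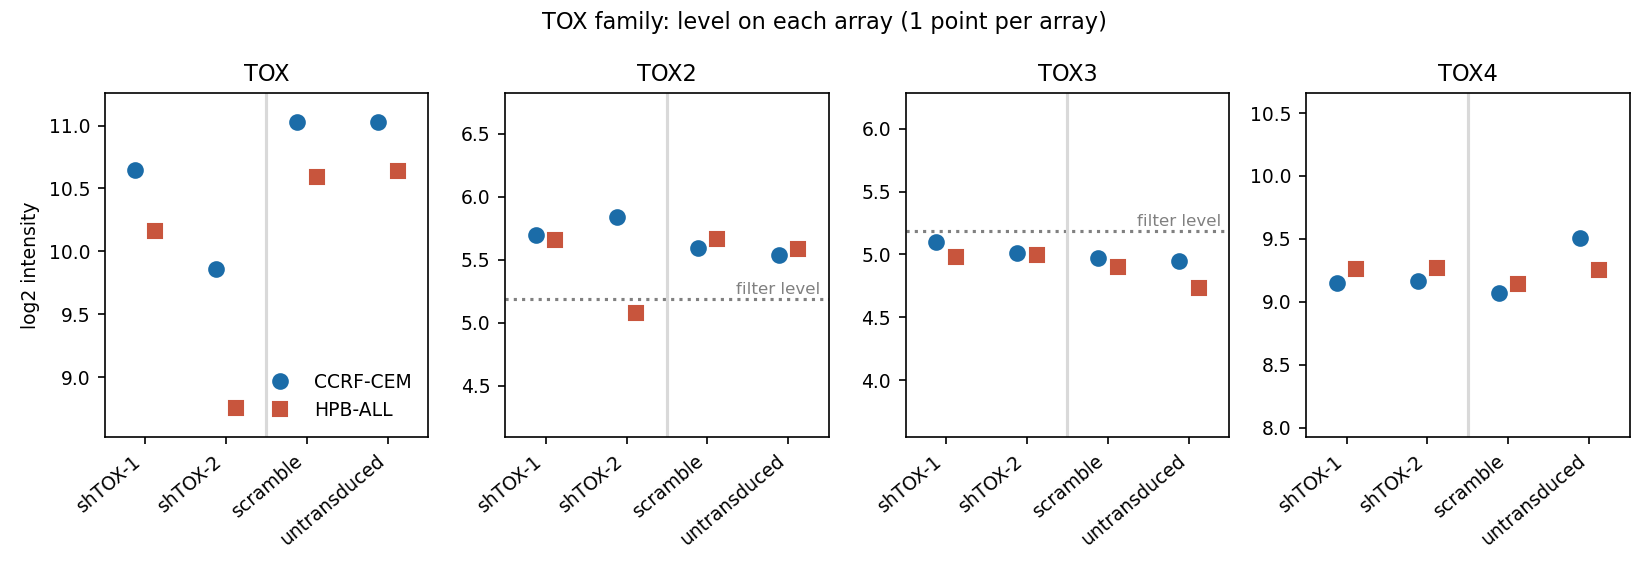
Log2 intensity of TOX, TOX2, TOX3 and TOX4 on each of the 8 arrays, by construct, with 1 point per array (circles CCRF-CEM, squares HPB-ALL) and the filter level of 5.18 dotted; all panels span the same number of log2 units. TOX reads 9.86 and 8.75 with shTOX-2, TOX2 reads 5.08 on the HPB-ALL shTOX-2 array, and TOX3 stays under the filter level.

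Over both lines, TOX averaged 9.86 ± 0.80 on the shTOX arrays and 10.82 ± 0.24 on the control arrays (SD, n = 4 each). The fit with line and shTOX as terms gave a log2 difference of -0.96 ± 0.28 (SE; 95% interval -1.59 to -0.34), which left 51.3% of the control level (33.3% to 78.9%). The limma adjusted p over all genes was 0.292, and 0% of the 8930 tested genes were called at an adjusted p under 0.05. By size, TOX held place 27 among the genes with a negative difference. An exact two-sided permutation of the shTOX and control labels within lines gave p = 0.0556, the smallest value that its 36 assignments allow.

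Splitting the shTOX arrays by hairpin showed where the spread lay. With shTOX-2, TOX differed from the controls by -1.51 ± 0.17, which left 35.1% of their level (95% interval 26.7% to 46.1%). Of the 8930 genes tested in that comparison, TOX had the smallest p (limma adjusted p = 0.13), and it held place 10 by size among negative differences. That comparison was chosen after the data had been seen. Under the 16 alternative settings TOX ranked between 1 and 7 by p, with an adjusted p from 0.0531 to 0.999, and was not called in any.

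With shTOX-1, TOX differed from the controls by -0.42 ± 0.17, leaving 75.0% (95% interval 57.0% to 98.6%; limma adjusted p = 0.473), and it ranked 770 by p. Directly compared, shTOX-2 stood below shTOX-1 by -1.10 ± 0.20 (95% interval -1.55 to -0.64), with an adjusted p of 0.401 and rank 5 of 8930. Within the lines, the shTOX-2 array held 58.0% of the TOX signal of the shTOX-1 array in CCRF-CEM and 37.7% in HPB-ALL. The comparisons by hairpin called 0% of the 8930 genes.

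The kind of control made little difference to the size. TOX differed by -0.95 ± 0.35 from scramble (adjusted p = 0.93) and by -0.98 ± 0.35 from untransduced cells (adjusted p = 0.103), while scramble and untransduced arrays differed by -0.02 ± 0.40 (adjusted p = 0.983). The untransduced arrays gave many more calls elsewhere, 11.8% of tested genes against untransduced cells and 0% against scramble. Against untransduced cells, 6.18% of tested genes were called higher and 5.64% lower with shTOX, and TOX was not among them.

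Cell type markers were read beside this contrast, each list as the log2 of its summed linear intensities. The sum of the 7 measured T cell markers ran from 10.69 to 12.37 on the shTOX arrays and from 11.39 to 13.13 on the control arrays. These ranges, and those of the other lists, pool both lines. As the tested T cell markers were higher in CCRF-CEM (median 2.31), overlap of the pooled ranges does not show overlap within a line. Within lines their median shTOX difference was -0.37 in CCRF-CEM (5 negative, 1 positive) and -0.63 in HPB-ALL (6 negative). All 6 tested T cell markers had a negative shTOX difference (median -0.58), and 0 were called. An unadjusted p under 0.05 was reached by 4 of these 6 and by 1277 of the 8930. In both lines CD7 and LCK followed the order of TOX, shTOX-2 below shTOX-1 below both controls, and the other tested markers did not. That order was shown by 1.5% of all tested genes. Against untransduced cells all 6 were negative (median -0.76) and 2 were called lower (33.3%, where 5.64% of all tested genes were). Against scramble alone 5 were negative and 1 positive (median -0.34, 0 called), and scramble against untransduced was negative for all 6 (median -0.29, 0 called). The sum of the 2 measured B cell markers ran from 5.99 to 6.39 on shTOX arrays and from 5.98 to 6.10 on control arrays. For 4 of 6 myeloid markers the sum ran from 6.48 to 8.32 on shTOX arrays and from 6.13 to 7.64 on control arrays, with CD14 and CSF1R under the filter level on all 8. Among them the granule enzyme MPO reached 7.94 on the HPB-ALL shTOX-2 array and 7.03 on the HPB-ALL scramble array, and lay between 4.47 and 5.45 on the other 6. Of 6 fibroblast and epithelial markers, 4 were measured, with sums of 7.84 to 8.11 on shTOX arrays and 8.02 to 8.49 on control arrays. The part of these markers in the TOX difference was not tested.

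The lines differed in TOX in the same direction for every construct. CCRF-CEM exceeded HPB-ALL by 0.49 with shTOX-1, 1.11 with shTOX-2, 0.44 with scramble and 0.39 untransduced, the last a 1.31-fold higher level in untransduced CCRF-CEM. The mean difference was 0.61 ± 0.28 (95% interval -0.02 to 1.23; limma adjusted p = 0.138), where 27.4% of tested genes were called between the lines. With the construct as a block it was 0.61 ± 0.14 and was called (adjusted p = 0.0131). It was 0.29 without the HPB-ALL shTOX-2 array, and 0.85 and called (adjusted p = 0.0463) without the HPB-ALL shTOX-1 array. Between the control arrays it was 0.41 ± 0.41 (adjusted p = 0.598, 13.2% of tested genes called). Between the shTOX arrays it was 0.80 ± 0.41 (adjusted p = 0.231, 15.2% called). These values come from the fit with a mean per line and state, which pools its error over control and shTOX arrays. That error includes the gap of shTOX-2 from shTOX-1, -0.79 in CCRF-CEM and -1.41 in HPB-ALL. Scramble minus untransduced was only -0.0006 in CCRF-CEM and -0.05 in HPB-ALL. A fit to the control arrays by themselves was not made. Exact reassignment of the lines within constructs gave p = 0.125 (two-sided), the smallest value that 16 assignments allow.

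Ordered by level, TOX was highest on the untransduced and scramble arrays of CCRF-CEM, followed by CCRF-CEM shTOX-1, HPB-ALL untransduced, HPB-ALL scramble, HPB-ALL shTOX-1, CCRF-CEM shTOX-2 and HPB-ALL shTOX-2. The spread of TOX around a fit with line and hairpin was 0.21 (residual SD, 4 degrees of freedom). Neighbours closer than that spread were both CCRF-CEM controls, and the run from CCRF-CEM shTOX-1 through HPB-ALL untransduced to HPB-ALL scramble, with gaps of 0.01 and 0.05. The largest gap, 1.11, set HPB-ALL shTOX-2 below CCRF-CEM shTOX-2.

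Taken line by line, shTOX minus control for TOX came to -0.77 ± 0.41 in CCRF-CEM and -1.16 ± 0.41 in HPB-ALL, where 0% of tested genes were called in either line. Their difference of 0.39 ± 0.58 had a limma adjusted p of 0.996, and its 95% interval from -0.94 to 1.72 holds both equal responses and sizeable inequality. The fit took both hairpins of a line as repeats. Its errors therefore include the gap of shTOX-2 from shTOX-1, -0.79 in CCRF-CEM and -1.41 in HPB-ALL, and not the noise of arrays alone.

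TOX2, the relative found in natural killer and follicular helper T cells, was dim in both lines and did not keep the order that TOX had over the constructs. In CCRF-CEM its log2 level was 5.69 with shTOX-1 and 5.84 with shTOX-2, against 5.59 with scramble and 5.54 in untransduced cells. In HPB-ALL TOX2 was 5.66 with shTOX-1 and 5.08 with shTOX-2, against 5.66 with scramble and 5.58 in untransduced cells. The HPB-ALL shTOX-2 array, which also had the lowest TOX level, was the one array below the filter level, whereas the shTOX-2 array of CCRF-CEM had the highest TOX2 level of the 8.

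Taken over lines, TOX2 averaged 5.57 ± 0.34 on shTOX arrays and 5.59 ± 0.05 on control arrays (SD, n = 4 each). Its difference was -0.03 ± 0.15 (95% interval -0.37 to 0.32; limma adjusted p = 0.945; exact permutation p = 0.944, two-sided), so that the interval of the ratio ran from 77.2% to 124% of the controls. Without the HPB-ALL shTOX-2 array the sign turned, to 0.13. It also turned under quantile normalization (0.0014) and on omission of 1 HPB-ALL control, either scramble (0.03) or untransduced (0.0004). Within the lines TOX2 was at 0.20 ± 0.20 in CCRF-CEM and -0.26 ± 0.20 in HPB-ALL, and the contrast of these, 0.45 ± 0.29, was not called (adjusted p = 0.973). Between the lines TOX2 differed by 0.17 ± 0.15 (adjusted p = 0.443), and 0.01 without the HPB-ALL shTOX-2 array.

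TOX4, the phosphatase-complex subunit, was well above the filter level. Across constructs it was nearly level in HPB-ALL (span 0.13) and spanned 0.44 in CCRF-CEM. In CCRF-CEM it stood at 9.15 with shTOX-1 and 9.16 with shTOX-2, against 9.07 with scramble and 9.51 in untransduced cells. In HPB-ALL TOX4 stood at 9.26 with shTOX-1 and 9.27 with shTOX-2, against 9.14 with scramble and 9.25 in untransduced cells. The untransduced CCRF-CEM array lay above the other 7, which spanned 9.07 to 9.27.

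The mean of TOX4 was 9.21 ± 0.06 on shTOX arrays and 9.24 ± 0.19 on control arrays (SD, n = 4 each). Its shTOX difference was -0.03 ± 0.13 (95% interval -0.31 to 0.25, or 80.5% to 119% of the controls; limma adjusted p = 0.92; exact permutation p = 1, two-sided). The sign turned without the untransduced CCRF-CEM array (0.08) and with scramble arrays as the only controls (0.10). Scramble against untransduced gave -0.27 ± 0.15 (adjusted p = 0.391). The lines differed by -0.01 ± 0.13 (adjusted p = 0.975), with a 95% interval from -0.29 to 0.27. WDR82, a subunit of the same complex and the single one of 5 listed partners with a named probe set, differed by 0.04 ± 0.11 between shTOX and control arrays (adjusted p = 0.886). On both shTOX arrays WDR82 lay below both controls in CCRF-CEM and above both in HPB-ALL; 5.16% of tested genes took such opposite sides.

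TOX3 stayed under the filter level on all 8 arrays, with a range of 0.36. In CCRF-CEM it read 5.10 with shTOX-1 and 5.01 with shTOX-2, against 4.97 with scramble and 4.95 in untransduced cells. In HPB-ALL it read 4.98 with shTOX-1 and 4.999 with shTOX-2, against 4.90 with scramble and 4.73 in untransduced cells. Both shTOX arrays therefore lay above both controls in each line, by small amounts, a pattern shown by 6.36% of the 8930 tested genes.

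In a fit over all 14884 genes, without the filter, TOX3 differed by 0.13 ± 0.09 between shTOX and control arrays (95% interval -0.07 to 0.33; limma adjusted p = 0.568; exact permutation p = 0.0556, two-sided, the smallest possible). It averaged 5.02 ± 0.05 on shTOX arrays and 4.89 ± 0.11 on control arrays (SD, n = 4 each). Between the lines it differed by 0.10 ± 0.09 (adjusted p = 0.505). At levels this close to background, the size of a difference is limited.

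**Figure D2:**
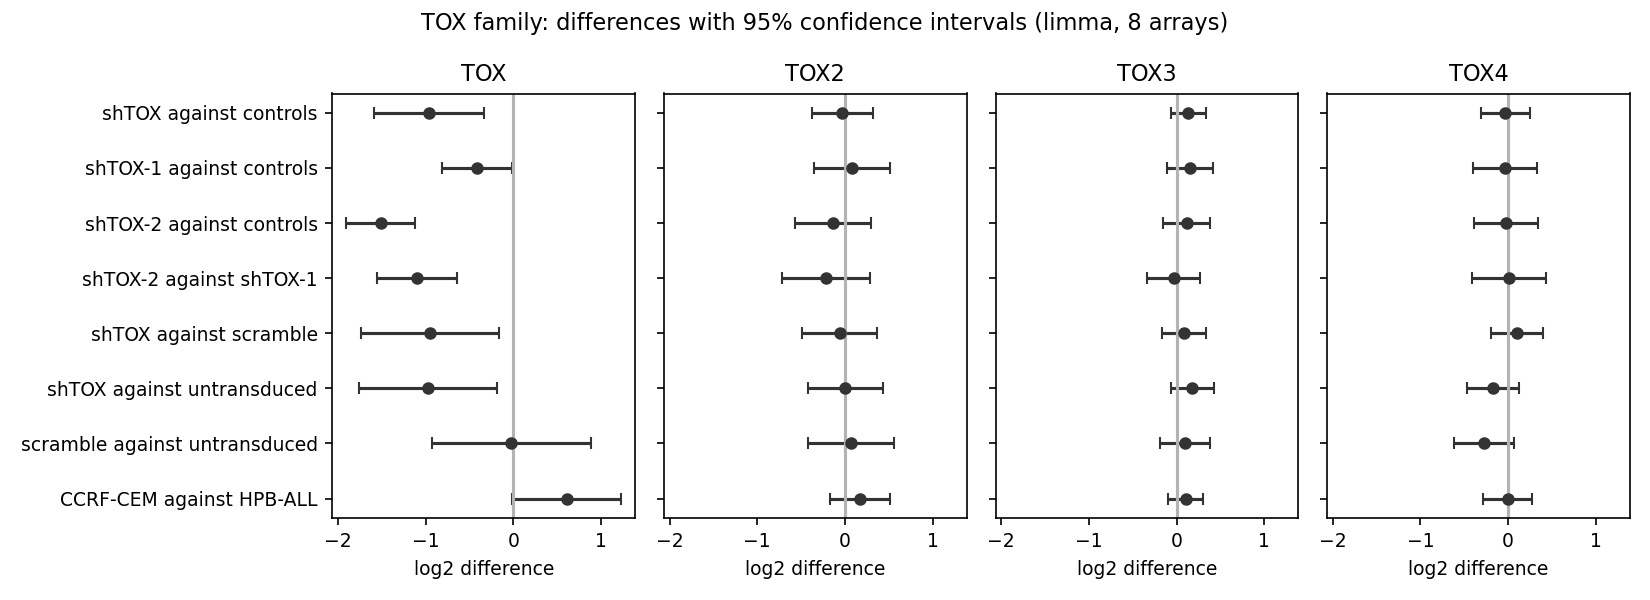
Log2 differences of the 4 genes (points) with 95% confidence intervals (bars) from limma fits on the 8 arrays, for 8 comparisons; positive values mean higher in the group named first. For TOX the intervals lie below 0 in all 6 comparisons that involve a shTOX hairpin, from -0.42 with shTOX-1 to -1.51 with shTOX-2, while those of TOX2, TOX3 and TOX4 all include 0.

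Beyond the family, 45 other HMG-box genes were listed, of which 38 had a named probe set and 26 passed the filter; the other 12 measured ones, among them SOX2 and SOX11, were too dim to be tested. The HMG box is shared by SOX factors, by the Wnt-pathway factors LEF1 and the TCF genes, by the architectural HMGB proteins and by subunits of chromatin complexes. Between shTOX and control arrays, 18 of the 26 had a positive and 8 a negative difference, and 0 were called (0% of all tested genes). The median was 0.05, against 0.03 over all tested genes. With scramble as the only control the signs were even, 13 positive and 13 negative, with a median of 0.0054. An unadjusted p under 0.05 was reached by 3 of the 26 and by 1277 of the 8930.

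Those 3 were LEF1, KMT2C and SSRP1. LEF1, a T lineage factor that acts with beta-catenin, had CCRF-CEM levels of 10.51 (shTOX-1) and 10.35 (shTOX-2), against 10.78 with scramble and 10.95 untransduced. HPB-ALL had LEF1 at 9.51 with shTOX-1 and 9.08 with shTOX-2, against 9.76 with scramble and 10.29 untransduced. In both lines it followed the order of TOX, shTOX-2 below shTOX-1 below both controls, as did 1.5% of all tested genes. Its difference was -0.58 ± 0.16 (limma adjusted p = 0.292).

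SSRP1, a subunit of the histone chaperone FACT, showed the mirror order, which 1.33% of tested genes showed. In CCRF-CEM it was at 9.84 with shTOX-1 and 9.90 with shTOX-2, against 9.75 with scramble and 9.01 untransduced. HPB-ALL had SSRP1 at 9.93 with shTOX-1 and 10.14 with shTOX-2, against 9.59 with scramble and 9.40 untransduced. Its difference was 0.51 ± 0.16 (adjusted p = 0.301), and against scramble alone it was 0.28 ± 0.15 (adjusted p = 0.93). KMT2C, a histone H3 methyltransferase, lay below both controls of its line on all shTOX arrays, as did 4.99% of tested genes. It differed by -0.46 ± 0.14 (adjusted p = 0.301), and by -0.25 ± 0.13 against scramble (adjusted p = 0.93).

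Against untransduced cells alone, 7 of the 26 HMG-box genes were called (26.9%, where 11.8% of all tested genes were called). HMGB3 (0.96 ± 0.18), SSRP1 (0.74 ± 0.15) and HMGB2 (0.66 ± 0.16), all tied to chromatin, rose, as did WDHD1, a replication factor, by 0.53 and 1 further gene. In HPB-ALL, HMGB3 lay below the filter level on the shTOX and untransduced arrays, where background bounds how exactly a difference can be read. LEF1 (-0.76 ± 0.17) and KMT2C (-0.67 ± 0.13) fell. The limma adjusted p of these 7 lay between 0.0124 and 0.0379. Scramble arrays differed from untransduced ones in the same direction for all 7, and HMGB3 was called there too, at 1.40 ± 0.20 (adjusted p = 0.031), the 1 of 26 called where 1.06% of all genes were (0.582% higher, 0.482% lower). Against scramble, 0 of the 26 were called (2 at an unadjusted p under 0.05), and HMGB3 stood at -0.44 ± 0.18 (adjusted p = 0.93). These comparisons share the untransduced and the shTOX arrays.

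**Figure D3:**
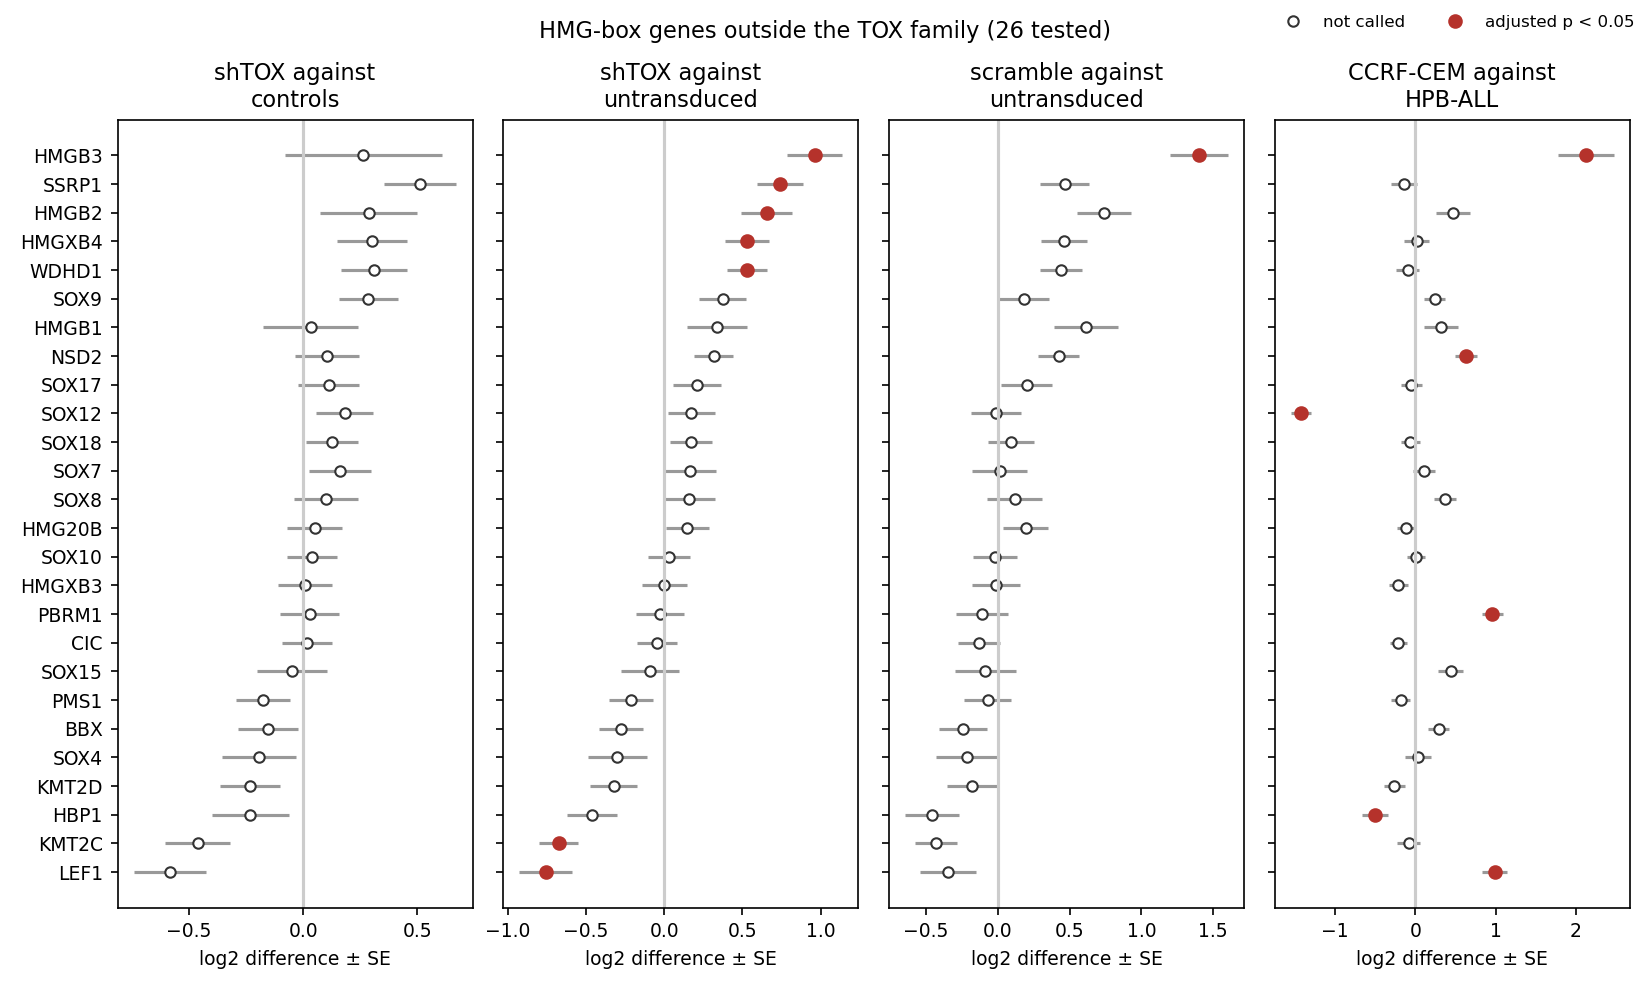
Log2 differences (points, bars are standard errors) of the 26 tested HMG-box genes outside the TOX family in 4 comparisons, with genes called at an adjusted p under 0.05 filled; x axes differ in range. None is filled between shTOX and control arrays, 7 are against untransduced cells, 1 is between scramble and untransduced arrays and 6 are between the lines.

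Between the lines, 6 of the 26 were called (23.1%, against 27.4% of all tested genes), 4 higher and 2 lower in CCRF-CEM, where 12.4% of all tested genes were higher and 14.9% lower. HMGB3 was higher by 2.13 ± 0.34: it was at 7.23, 7.18, 7.25 and 6.02 in CCRF-CEM (shTOX-1, shTOX-2, scramble, untransduced), against 4.75, 4.80, 5.60 and 4.03 in HPB-ALL. As 3 of the HPB-ALL arrays lay below the filter level, the size of this difference is limited by background. LEF1 (0.99 ± 0.16), PBRM1, a subunit of the PBAF remodelling complex (0.95 ± 0.13), and the histone methyltransferase NSD2 (0.63 ± 0.14) were also higher. SOX12 was lower by -1.43 ± 0.12, with 7.29 to 7.75 in CCRF-CEM against 8.86 to 9.13 in HPB-ALL, and HBP1, a repressor of cell cycle genes, by -0.50 ± 0.17. The limma adjusted p ranged from 1.66e-05 for SOX12 to 0.0484 for HBP1.

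Partners of TOX and genes tied to its role in T cells were read in the same fits. Of 7 end-joining genes 4 were tested, and 0 were called between shTOX and control arrays. The KU genes XRCC6 and XRCC5 differed by 0.27 ± 0.14 (limma adjusted p = 0.391) and 0.25 ± 0.13 (adjusted p = 0.403), and by 0.09 and 0.05 against scramble. Against untransduced cells 1 of the 4 was called, XRCC5 (0.45 ± 0.12, adjusted p = 0.0421), where 11.8% of all tested genes were called. For XRCC5 the scramble arrays also read above the untransduced ones, 11.78 against 11.31 in CCRF-CEM and 11.66 against 11.33 in HPB-ALL. Of the HBO1 histone acetyltransferase complex, which has been found with TOX, 5 of 10 subunits were tested and 0 called between shTOX and control arrays. Its catalytic subunit KAT7 was at 0.23 ± 0.13 (adjusted p = 0.419), and at 0.05 ± 0.12 against scramble. Between the lines 2 of the 5 HBO1 subunits were called (40%, against 27.4% of all tested genes). JADE2 (0.43 ± 0.12, adjusted p = 0.0214) was higher and MEAF6 (-0.32 ± 0.11, adjusted p = 0.0492) lower in CCRF-CEM. None of 12 listed calcineurin, NFAT and NR4A genes, which act upstream of TOX in stimulated T cells, had a named probe set in the annotation used here.

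Of 19 genes tied to TOX in T cell development and exhaustion, 11 were tested. Their shTOX difference was negative for 9 and positive for 2, with a median of -0.15 (0.03 over all tested genes), and 0 were called. Against scramble alone it was negative for 7 and positive for 4, with a median of -0.05, and against untransduced cells the median was -0.24. GATA3, a factor of CD4 lineage choice, followed the order of TOX in both lines, as did 1.5% of all tested genes. In CCRF-CEM it was at 8.70 with shTOX-1 and 8.56 with shTOX-2, against 8.94 with scramble and 9.16 untransduced. HPB-ALL had GATA3 at 8.89 with shTOX-1 and 8.64 with shTOX-2, against 9.11 with scramble and 9.05 untransduced, for a difference of -0.37 ± 0.12 (limma adjusted p = 0.301). BCL11B, a T lineage commitment factor, was at -0.25 ± 0.11 (adjusted p = 0.328), RUNX3, a factor of CD8 T cells, at -0.32 ± 0.16 (adjusted p = 0.377), and EOMES, a T-box factor, at 0.23 ± 0.19 (adjusted p = 0.566). EOMES straddled the filter level in both lines, at 4.93 to 5.66 in CCRF-CEM and 5.02 to 5.77 in HPB-ALL, so background limits the size of its difference.

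Between the lines 5 of these 11 were called (45.5%, against 27.4% of all tested genes). The coreceptors CD8A (2.03 ± 0.22), CD4 (1.87 ± 0.29) and CD8B (0.46 ± 0.14) and BCL11B (1.27 ± 0.11) were higher in CCRF-CEM, and RUNX3 (-1.31 ± 0.16) was lower. All 6 tested T cell markers were also called higher in CCRF-CEM (median 2.31), and their part in these differences was not tested. The limma adjusted p lay between 1.22e-05 for BCL11B and 0.0395 for CD8B. The CCRF-CEM levels of RUNX3, 4.83 to 5.43, straddled the filter level, so the size of its difference is bounded by background. The same limit holds for CD8B, which read 5.24 to 5.56 in CCRF-CEM and 4.73 to 5.28 in HPB-ALL.

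Genes that most resembled TOX were sought among 2182 tested genes whose values spanned at least 0.5 in each line. Likeness was Pearson's r with TOX over the 8 arrays after subtraction of each line's mean; all genes share the same arrays, and no p was taken. HYKK, a hydroxylysine kinase, came first at r = 0.98, followed by LNPK at 0.94, TMEM204 at 0.93, TMEM254 at 0.93, UQCRC2 at 0.92 and PPARA at 0.91. LNPK stabilizes junctions of the endoplasmic reticulum, UQCRC2 is a core subunit of respiratory complex III, and PPARA is a nuclear receptor of fatty acid metabolism. An r above 0.9 was found for 7 of the 2182 and one below -0.9 for 6.

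HYKK had CCRF-CEM levels of 7.48 (shTOX-1) and 7.06 (shTOX-2), against 7.81 with scramble and 7.72 untransduced. HPB-ALL had HYKK at 7.54 with shTOX-1 and 6.83 with shTOX-2, against 7.70 with scramble and 7.95 untransduced. Like TOX, it was lowest on the shTOX-2 array of each line. UQCRC2 was high on 6 arrays, from 11.45 to 11.96, and at 10.96 (CCRF-CEM) and 10.64 (HPB-ALL) with shTOX-2. In CCRF-CEM it read 11.91 with shTOX-1 against 11.68 with scramble.

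At the other end, DLX1, a homeobox factor, had r = -0.95, MKKS, a chaperonin-like protein, -0.94, the microRNA gene MIR25 -0.93 and ZNF596 -0.92. DLX1 had CCRF-CEM levels of 5.28 (shTOX-1) and 5.40 (shTOX-2), against 4.87 with scramble and 4.91 untransduced, and so straddled the filter level there. HPB-ALL had DLX1 at 5.52 with shTOX-1 and 6.21 with shTOX-2, against 5.53 with scramble and 5.32 untransduced. As these genes were chosen for their course over the same arrays, no test of an shTOX difference is given for them. Of the family itself, r with TOX was 0.51 for TOX2, -0.59 for TOX3 and 0.02 for TOX4. None of them met the span of 0.5 in each line: TOX2 spanned 0.30 in CCRF-CEM, TOX3 0.15 and 0.27, and TOX4 0.13 in HPB-ALL. The lines also differed for TOX2. On the shTOX-2 array, where TOX was lowest in each line, TOX2 was at its highest in CCRF-CEM (5.84) and its lowest in HPB-ALL (5.08).

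**Figure D4:**
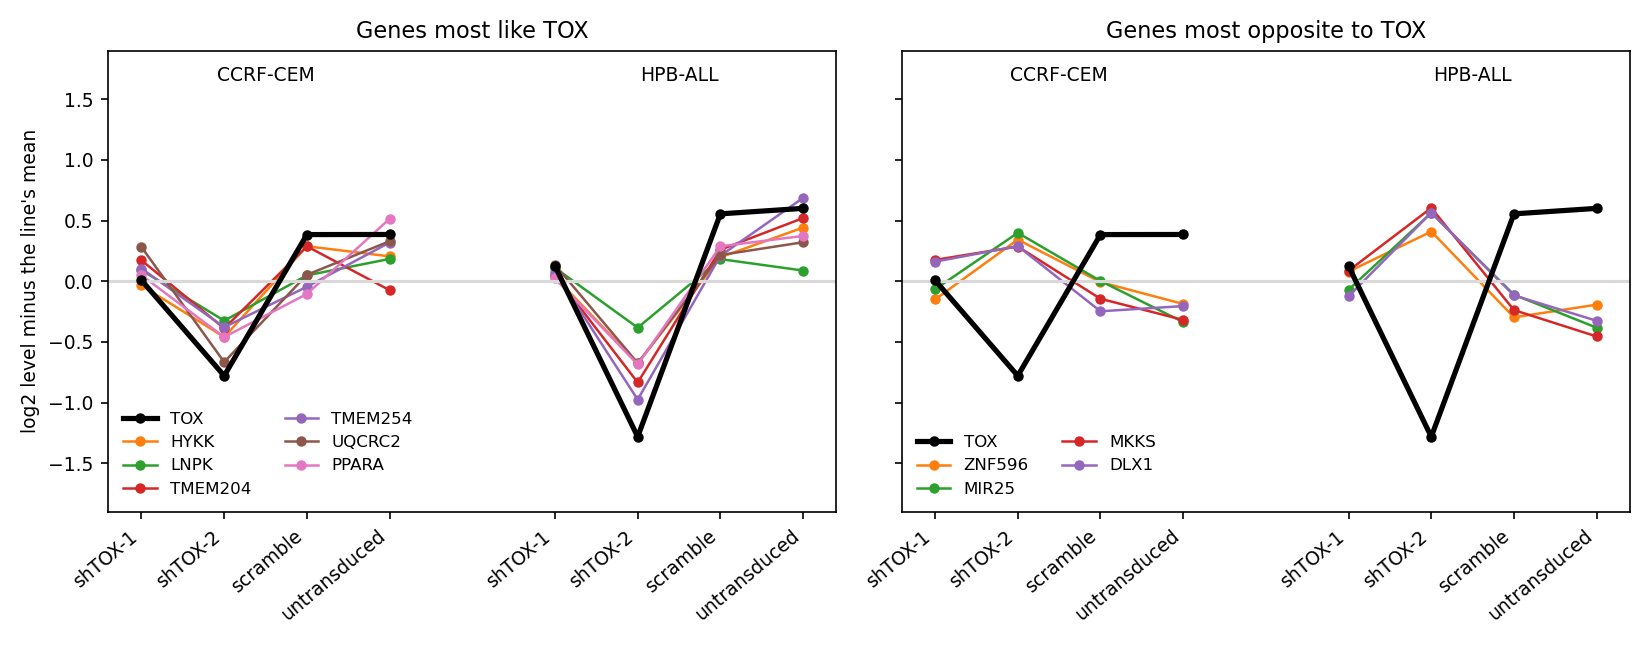
Log2 level minus the mean of the line for TOX (black) with the 6 genes of highest r (left) and the 4 of lowest r (right), over the 4 constructs of each line; lines between points only guide the eye. The 6 genes on the left are lowest on the shTOX-2 array of each line and the 4 on the right highest, and the black line shows the shTOX-1 arrays between shTOX-2 and the controls.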

How the data were processed

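Biotin-labelled cRNA was prepared by the GeneChip WT Plus protocol, per the labels' protocols, and read on Affymetrix arrays. Every probe set has 1 value per array, which the authors deposited as log2 intensities, a scale inferred from how the values are spread. How they corrected background, summarized probes and normalized, and with which software, is not given in the sources used here. Of 53617 probe sets, 16098 carried a single gene symbol, 0 several and 37519 none. The Entrez identifiers of all 16098 matched RefSeq. Genes with several probe sets were represented by the brightest on average.

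Differences were estimated on the 8 arrays in R 4.3.3 by limma 3.58.1 (linear fits, contrasts, empirical Bayes), with Benjamini-Hochberg adjustment over all 8930 tested genes and a call at an adjusted p under 0.05. Fits held line with shTOX, with each hairpin or with 3 treatments, or a mean per line and state. The code was tested on simulated data. The hairpin numbers are shared by the lines. Across genes, shTOX-2 minus shTOX-1 correlated between lines at r = 0.23, and scramble minus untransduced at r = 0.37, which is the basis of the fit with construct as a block. The block moved the genes called between shTOX and controls to 16, against 0.

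Members and lists were chosen with earlier results of these data known. Named were the 4 members, of each list the largest called members (at most 6) or, with none called, those of lowest p (at most 4), and the 6 genes most like TOX and 4 most opposite. Alternatives left out each array or the untransduced arrays, dropped the line term or filter, raised the filter to the 60th percentile, used quantile normalization, the mean of probe sets or an eBayes trend.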

Additional observations from a re-analysis of the deposited data

Results flagged for a closer look

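Opposite sides of the controls in the 2 lines were taken by 5 of the 94 members, listed genes and genes most or least like TOX that had values; over all tested genes the share was 5.16%. SOX1 had a shTOX minus control difference of 0.13 in CCRF-CEM and -0.12 in HPB-ALL, and SOX2 of 0.13 and -0.07, both below the filter level. HMGXB3 was at -0.15 in CCRF-CEM and 0.16 in HPB-ALL, and WDR82 at -0.073 and 0.15. TBX21, a T-box factor of T helper cells, was at 0.30 in CCRF-CEM and -0.27 in HPB-ALL. The interaction of line and shTOX in limma over all genes gave adjusted p-values between 0.906 and 0.922 for these 5, and called 0 of the 94.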

How the results depend on the processing

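The shTOX difference of TOX stayed negative and uncalled under all 16 alternatives, from -1.21 to -0.64. Its limma adjusted p ran from 0.0545 with construct as a block to 0.921 with scramble as the only controls. TOX with shTOX-2 stayed below shTOX-1 under all 16, from -1.43 to -0.76. The comparison of shTOX-2 with controls, added after seeing the data, ran from -1.85 to -1.18. TOX between the lines ranged from 0.29 to 0.85 with arrays left out. It was called in 2 settings, at 0.61 with the replicate block of construct and at 0.85 without the HPB-ALL shTOX-1 array. With arrays left out, the shTOX difference ranged from -0.10 to 0.13 for TOX2 and from -0.10 to 0.075 for TOX4, and the line difference of TOX4 from -0.12 to 0.060. Signs also turned under quantile normalization for TOX2 (0.0014) and for TOX4 between lines (0.039), and with scramble as the only controls for TOX4 (0.10). The genes called between shTOX and controls numbered 16 with the block, 4 without the CCRF-CEM scramble array and 1 without the HPB-ALL scramble array, and otherwise 0. HMG-box genes called between the lines numbered 4 to 7, and between shTOX and controls 0 throughout. TOX2 did not pass the 60th percentile filter. With the block, 7 HMG-box genes (against 6) and 2907 of all tested genes (against 2443) were called between the lines, and no other call of a TOX family gene changed. The cause of each change was not tested. Levels near background limit TOX2 and TOX3.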
